A study of Rattus norvegicus with 12 samples.

Results

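The sterol and fatty acid synthesis genes controlled by SREBP were 33 genes, matched by the symbol that the files pair with each gene identifier. All 33 were found among the 32623 genes of the files, and 31 had enough counts to be tested. The RNA came from rat cells that the labels call primary hepatic stellate cells, taken from rats made cirrhotic by inhaled CCl4 (carbon tetrachloride) over a long period and isolated on density gradients. The cells were kept for 24 h beside Transwell inserts, porous membranes that let secreted molecules through. The inserts held 15000 viable human amniotic epithelial cells (hAEC, 4 libraries), the same number of human amniotic mesenchymal stromal cells (hAMSC, 4 libraries), or vehicle (4 libraries). All groups share the cirrhotic source, and no label names an age, a strain or a rat for a library.

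SREBPs are transcription factors that are held in the endoplasmic reticulum membrane as inactive precursors. SCAP carries them to the Golgi when membrane sterol is low, where proteases free the active part. INSIG proteins keep SCAP in place when sterol is plentiful. SREBP-2, made from Srebf2, mainly drives the enzymes of cholesterol synthesis, and SREBP-1, made from Srebf1, mainly those of fatty acid synthesis and desaturation. In liver macrophages and stellate cells alike this pathway supplies the sterol and unsaturated fat that a cell makes for itself.

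The libraries held 27382724 to 34922211 counts each. The first principal component of the 2000 most variable genes held 73.5% of their variance and parted the libraries into 2 sets of 6. The lower-numbered set holds hAEC 3 and 4, hAMSC 7 and 8 and vehicle 17 and 18, and the higher-numbered set hAEC 11 and 12, hAMSC 15 and 16 and vehicle 19 and 20. The labels give no reason for the sets, so every comparison below was fitted with the set as a term. Against the label, markers of macrophages were far above those of stellate cells: 11 macrophage genes summed to 7552 to 20348 CPM (counts scaled to library size, as used throughout) per library, and 10 stellate cell genes to 26.2 to 102 CPM. Acta2, the actin of myofibroblasts, reached 0.802 to 3.0 CPM, and Lrat, the retinol-storing enzyme of stellate cells, 0 to 0.371 CPM. In these bulk libraries fewer cells of a type and less RNA per cell cannot be told apart.

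RefSeq promoter windows, from 250 bases before to 50 after the gene's start on the rat build GRCr8, were found for 26 of the 33 genes, 27 windows in all because Srebf1 has 2. They were searched on both strands for 3 short motifs: TCACNCCAC, the sterol regulatory element that SREBPs bind; CCAAT, the box of NF-Y, a factor known to bind beside SREBPs; and CACGTG, the E-box. CCAAT was in 21 of the 27 windows, or 77.8%, against 37.5% of all 33469 windows and 37.2% of the 10557 windows of genes tested here. CACGTG was in 4 windows (Elovl5, Insig1, Sc5d and Scap), 14.8% against 6.42% of all windows and 8.96% of those of genes tested here. None of the 27 windows held the exact letters TCACNCCAC, which 1.12% of all windows and 1.04% of those of genes tested here held. A match of letters is not a bound site, and its absence in this window says nothing about the factor. No window was found for Acaca, Elovl6, Fasn, Fdft1, Pmvk, Sqle and Stard4, so these genes were not searched.

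The 250 bases before the start are shown for 5 of the genes whose levels are described below, with CCAAT (read as ATTGG when it lies on the other strand) and CACGTG in capitals. Fads1 is at chr1:216252442-216252691 (plus strand), Msmo1 at chr16:29746863-29747112 (plus strand), Idi1 at chr17:66547525-66547774 (minus strand), Insig1 at chr4:8057770-8058019 (minus strand) and Cyp51 at chr4:30991443-30991692 (plus strand). Msmo1 holds 3 CCAAT boxes, Idi1 holds 2, Fads1 and Insig1 hold 1 each, Insig1 also has the E-box, and Cyp51 is shown as a window with no match.
Fads1: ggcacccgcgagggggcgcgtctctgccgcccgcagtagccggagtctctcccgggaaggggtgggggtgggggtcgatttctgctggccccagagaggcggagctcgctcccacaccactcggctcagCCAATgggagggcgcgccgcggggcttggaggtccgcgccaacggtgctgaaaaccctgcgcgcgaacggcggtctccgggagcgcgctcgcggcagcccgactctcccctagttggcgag
Msmo1: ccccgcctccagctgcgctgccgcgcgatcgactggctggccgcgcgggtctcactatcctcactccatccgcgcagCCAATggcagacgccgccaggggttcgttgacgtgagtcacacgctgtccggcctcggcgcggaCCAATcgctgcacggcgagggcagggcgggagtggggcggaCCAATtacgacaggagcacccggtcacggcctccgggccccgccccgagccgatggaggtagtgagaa
Idi1: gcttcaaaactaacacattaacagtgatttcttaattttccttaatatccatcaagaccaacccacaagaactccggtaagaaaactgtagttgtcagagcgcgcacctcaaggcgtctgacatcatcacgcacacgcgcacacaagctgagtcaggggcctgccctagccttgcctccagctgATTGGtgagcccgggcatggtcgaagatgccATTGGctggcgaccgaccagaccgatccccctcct
Insig1: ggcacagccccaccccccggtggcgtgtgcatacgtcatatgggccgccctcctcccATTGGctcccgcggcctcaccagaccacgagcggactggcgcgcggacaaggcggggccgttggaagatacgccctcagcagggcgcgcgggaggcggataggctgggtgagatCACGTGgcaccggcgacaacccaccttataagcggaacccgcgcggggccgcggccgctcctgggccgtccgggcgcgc
Cyp51: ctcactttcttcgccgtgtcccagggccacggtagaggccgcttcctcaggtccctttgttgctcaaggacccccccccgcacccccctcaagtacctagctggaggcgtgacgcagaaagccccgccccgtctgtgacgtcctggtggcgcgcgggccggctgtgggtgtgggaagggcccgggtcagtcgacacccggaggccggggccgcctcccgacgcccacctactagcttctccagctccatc

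With hAMSC, 2 of the 31 tested genes passed against vehicle, both higher: Sqle, the squalene epoxidase that commits squalene to the sterol ring, and Fads1, a desaturase that makes polyunsaturated fatty acids. Sqle rose 1.18-fold (log2 fold change 0.24, SE 0.04, adjusted p = 0.0277), and Fads1 rose 1.29-fold (log2 0.37, SE 0.07, adjusted p = 0.0314). Over all 13539 genes tested, 32 genes or 0.236% passed in this comparison, and 0.155% passed as higher. With hAEC no gene of the 31 passed, nor did any of the 13539 (0.0%) in edgeR's quasi-likelihood test, where 759 genes were under an unadjusted p of 0.05 and DESeq2 called 2. By sign alone, most of the 31 genes had higher fitted values in both co-cultures. With hAEC, 26 of 31 had a log2 fold change above 0 with a median of 0.06, and with hAMSC also 26 of 31 with a median of 0.08. Over all genes tested 48.5% and 48.9% were above 0, with medians of -0.00325 and -0.00268. The 2 comparisons share their vehicle libraries, so they are not independent of each other.

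In the lower-numbered set Sqle was counted at 48.3 and 45.9 CPM with vehicle, 52.1 and 52.7 with hAEC, and 55.0 and 53.1 with hAMSC. In the higher-numbered set the CPM were 65.8 and 58.9 with vehicle, 69.6 and 70.5 with hAEC, and 77.2 and 74.8 with hAMSC. Within each set both hAMSC libraries and both hAEC libraries lay above both vehicle libraries. The mean over 4 libraries was 65.0 ± 12.7 CPM with hAMSC, 61.2 ± 10.2 with hAEC and 54.7 ± 9.28 with vehicle (SD, n = 4), and these SDs include the gap between the sets. Each set fitted alone gave hAMSC log2 fold changes of 0.21 and 0.28. Against vehicle, hAEC gave a log2 fold change of 0.16 (SE 0.04, adjusted p = 0.86). Sqle was also the 1 gene of the 31 whose hAEC libraries lay below the hAMSC libraries in both sets (log2 -0.08, SE 0.04, adjusted p = 0.841). Such non-overlap was seen for 3.83% of all genes, and for none of the 31 in the other direction (3.69% of all genes).

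In the lower-numbered set Fads1 was counted at 15.1 and 14.0 CPM with vehicle, 18.2 and 19 with hAEC, and 17 and 18.3 with hAMSC. In the higher-numbered set the CPM were 26.3 and 24.4 with vehicle, 31.3 and 28.6 with hAEC, and 35.8 and 33.7 with hAMSC. As with Sqle, vehicle was lowest in both sets. The hAEC and hAMSC libraries overlapped in the lower-numbered set, and hAMSC lay above hAEC in the higher-numbered one. The set means with hAMSC were 17.6 and 34.7 CPM, against 14.6 and 25.4 with vehicle. For hAMSC the log2 fold change was 0.29 in the lower-numbered set alone and 0.45 in the higher-numbered set alone. With hAEC it was 0.30 (SE 0.07, adjusted p = 0.86). Its neighbour in the pathway, Fads2, a second desaturase, had 1 to 17 counts per library (0.0365 to 0.523 CPM) and was not tested.

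Both calls were lost when any 1 of several libraries was left out, while the fold changes stayed above 0. Leaving out 1 library at a time, the Sqle call was kept in 5 of 12 fits (log2 0.21 to 0.27) and the Fads1 call in 3 of 12 (log2 0.32 to 0.42). For Sqle the adjusted p became 0.0582, 0.0529 and 0.0512 when hAEC 3, 4 or 11 was left out, 0.0582 and 0.0991 for hAMSC 8 or 16, and 0.112 and 0.109 for vehicle 18 or 20. For Fads1 it became 0.0582, 0.0506 and 0.0523 for the same hAEC libraries, 0.108 and 0.127 for hAMSC 8 or 16, and 0.0571, 0.116, 0.0974 and 0.15 for vehicle 17, 18, 19 or 20. With hAMSC, DESeq2 called Sqle, Fads1, Cyp51 and Insig1, among 144 of all 13539 genes that it called. Limma voom called Sqle and Fads1, among 35 of all genes.

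**Figure D1:**
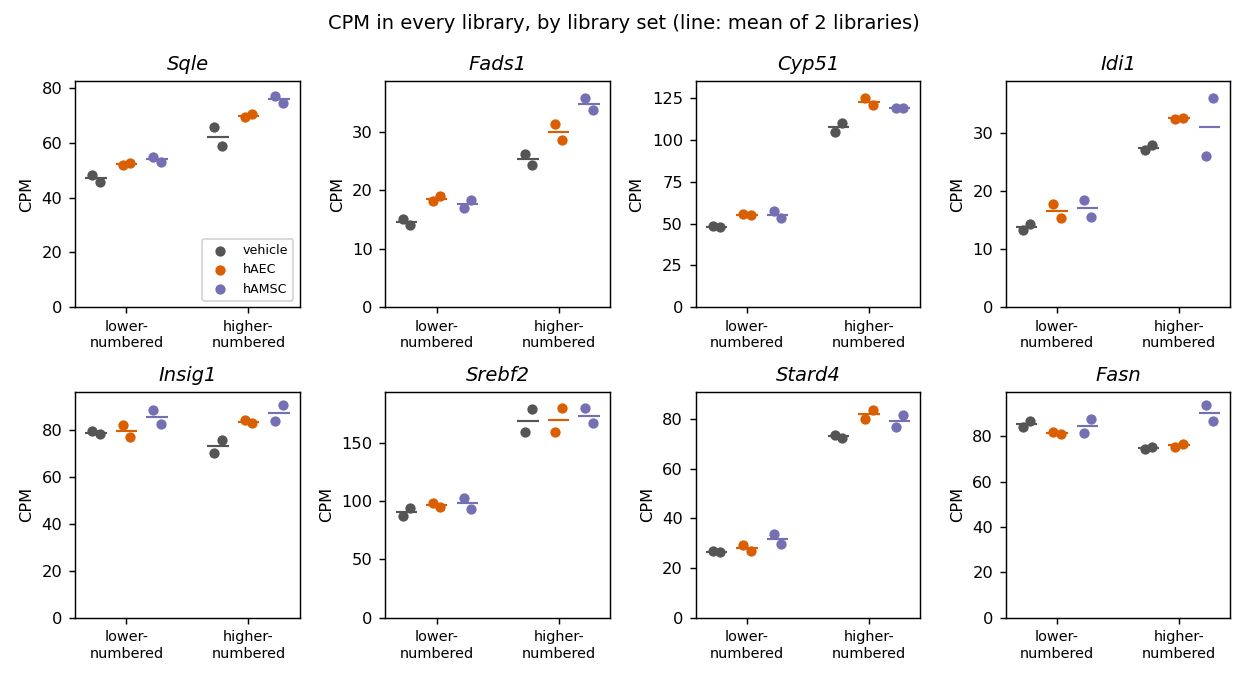
CPM (vertical axes, from 0) of 8 genes in each of the 12 libraries, split by library set along the horizontal axes; each point is 1 library, coloured by group, and each line the mean of the 2 libraries of a group in a set. Sqle and Fads1 are lowest with vehicle in both sets, and Stard4 differs far more between the sets than between groups. Within the higher-numbered set, Fasn stands highest in the hAMSC libraries.

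In the mevalonate steps, which build isoprene units from acetyl-CoA, none of the 7 genes passed in either comparison with vehicle. With hAEC 6 of 7 were above 0 (median log2 0.06) and with hAMSC also 6 of 7 (median 0.07). Idi1, the isomerase that makes the reactive isoprene unit, had the highest log2 fold changes of the group, 0.25 with hAEC (SE 0.09, adjusted p = 0.861) and 0.24 with hAMSC (SE 0.09, adjusted p = 0.406). Idi1 had 13.2 and 14.3 CPM with vehicle, 17.7 and 15.3 with hAEC, and 18.5 and 15.5 with hAMSC in the lower-numbered set, against 27.1 and 27.8, 32.3 and 32.6, and 26.0 and 35.9 in the higher-numbered set. Both hAEC libraries lay above both vehicle libraries in each set, while hAMSC 15, at 26.0 CPM, lay below the vehicle libraries of its set.

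Hmgcs1, which makes the HMG-CoA from which mevalonate comes, had a log2 fold change of 0.13 with hAEC (SE 0.04, adjusted p = 0.86) and 0.07 with hAMSC (SE 0.04, adjusted p = 0.644). Its libraries ran from 37.1 to 42.7 CPM in the lower-numbered set and from 63.3 to 71.8 in the higher-numbered set. The kinases Mvk and Pmvk, which phosphorylate mevalonate, had log2 fold changes of -0.12 and 0.11 with hAEC and -0.01 and 0.01 with hAMSC. Mvd, the decarboxylase that follows, gave 0.02 and 0.06, and Fdps, which joins isoprene units to farnesyl diphosphate, 0.04 and 0.08. Acat2, the thiolase of the first step, gave 0.06 with hAEC and 0.18 with hAMSC, each with an SE of 0.10.

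From squalene to cholesterol, 10 of 11 genes were above 0 with hAEC (median log2 0.11) and 9 of 11 with hAMSC (median 0.10). Sqle with hAMSC was the 1 call among them in edgeR's quasi-likelihood test. Cyp51, which removes a methyl group from lanosterol, had a log2 fold change of 0.19 with hAEC (SE 0.04, adjusted p = 0.53) and 0.17 with hAMSC (SE 0.04, adjusted p = 0.0927). In the lower-numbered set Cyp51 was counted at 48.6 and 47.8 CPM with vehicle, 55.4 and 55.1 with hAEC, and 57.3 and 53.2 with hAMSC. In the higher-numbered set the CPM were 105 and 110.3 with vehicle, 125 and 121 with hAEC, and 119 and 119 with hAMSC. In each set the 4 co-culture libraries lay above both vehicle libraries. DESeq2 called Cyp51 in both comparisons (adjusted p = 0.0225 with hAEC and 0.0115 with hAMSC), and with hAEC it called no other gene of the 31. Over all 13539 genes DESeq2 called 2 with hAEC and 144 with hAMSC.

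The next enzymes, Msmo1, Nsdhl and Hsd17b7, strip the remaining extra methyl groups from the sterol ring. Msmo1 gave log2 fold changes of 0.19 with hAEC and 0.18 with hAMSC (SE 0.06 each, adjusted p = 0.86 and 0.253). Hsd17b7 gave 0.19 and 0.24 (SE 0.10 each), and Nsdhl 0.06 and 0.10 (SE 0.05 each). Sc5d, a desaturase late in the pathway, gave 0.15 and 0.19 (SE 0.05 each, adjusted p = 0.86 and 0.206). Dhcr7, a last reductase of the pathway, gave -0.06 and -0.01 (SE 0.07 each). Of the rest, Fdft1 (squalene synthase), Lss (lanosterol synthase), Tm7sf2 (a sterol reductase) and Ebp (a sterol isomerase) ran from 0.02 to 0.11 with hAEC and from -0.05 to 0.09 with hAMSC, none past the threshold.

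**Figure D2:**
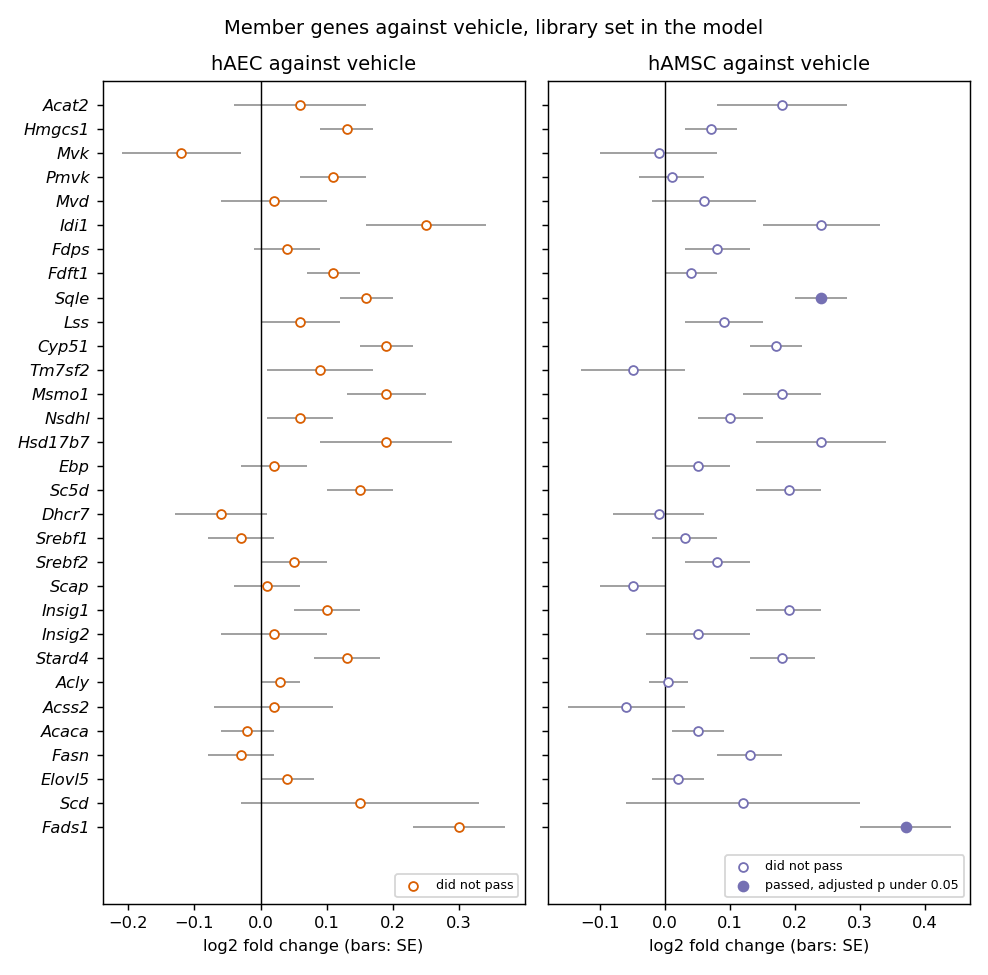
Log2 fold change against vehicle (horizontal axes) with its SE (bars) for the 31 tested genes, listed by role from top to bottom, for hAEC (left) and hAMSC (right); a filled point passed the threshold of 0.05 on the adjusted p. Filled points are Sqle at 0.24 and Fads1 at 0.37, both with hAMSC, and 26 of 31 points lie right of 0 in each panel.

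The 5 regulators did not pass in any comparison in edgeR's quasi-likelihood test. DESeq2 called Insig1 with hAMSC (adjusted p = 0.0475), among 144 of all 13539 genes that it called there. Srebf2, the gene of the SREBP of cholesterol synthesis, had a log2 fold change of 0.05 with hAEC and 0.08 with hAMSC (SE 0.05 each, adjusted p = 0.954 and 0.68). For Srebf2 the lower-numbered libraries held 87.4 and 94.0 CPM (vehicle), 98.2 and 95.2 (hAEC), and 103 and 93.7 (hAMSC). The higher-numbered ones held 159 and 179, 159 and 180.1, and 179.9 and 167, in the same order of groups. The hAEC libraries lay above vehicle in the lower-numbered set, hAMSC 8 lay within the vehicle range there, and the groups overlapped in the higher-numbered set. Srebf1 gave -0.03 and 0.03 (SE 0.05 each). Srebf1 had 74.5 and 74.4 CPM with vehicle, 75.0 and 74.3 with hAEC, and 77.3 and 77.0 with hAMSC in the lower-numbered set, against 105 and 105, 94.7 and 107, and 112 and 99.0 in the higher-numbered set. Its groups overlapped in the higher-numbered set, and in the lower-numbered set the hAMSC libraries were highest.

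Scap, the escort of SREBP, had log2 fold changes of 0.01 with hAEC and -0.05 with hAMSC (SE 0.05 each). For Scap the lower-numbered libraries held 70.9 and 70.7 CPM (vehicle), 69.3 and 69.4 (hAEC), and 70.9 and 70.0 (hAMSC). The higher-numbered ones held 67.3 and 70.1, 67.4 and 73.9, and 69.0 and 59.9, in the same order of groups. The 12 libraries stayed between 59.9 and 73.9 CPM, with hAMSC 16 lowest. Insig1, the sterol-dependent anchor of SCAP and itself an SREBP target, gave 0.10 with hAEC (SE 0.05, adjusted p = 0.881) and 0.19 with hAMSC (SE 0.05, adjusted p = 0.151). Insig1 had 79.7 and 78.3 CPM with vehicle, 82.2 and 77.3 with hAEC, and 88.8 and 82.6 with hAMSC in the lower-numbered set, against 70.3 and 76.0, 84.4 and 83.0, and 84.1 and 90.9 in the higher-numbered set. In each set both hAMSC libraries lay above both vehicle libraries, and the hAEC libraries did so in the higher-numbered set. Insig2, the second anchor, gave 0.02 and 0.05 (SE 0.08 each). For Insig2 the lower-numbered libraries held 8.05 and 6.92 CPM (vehicle), 7.89 and 7.76 (hAEC), and 7.97 and 7.38 (hAMSC). The higher-numbered ones held 10.6 and 10.4, 10.9 and 9.8, and 10.8 and 11.1, in the same order of groups. The groups overlapped in the lower-numbered set, and in the higher-numbered set hAMSC lay above vehicle while hAEC overlapped both.

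Stard4, a carrier of sterol between membranes, gave 0.13 with hAEC (SE 0.05, adjusted p = 0.881) and 0.18 with hAMSC (SE 0.05, adjusted p = 0.234). Its co-culture libraries lay above the vehicle libraries within each set, the closest pair being hAEC 4 at 26.9 CPM and vehicle 17 at 26.7.

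In fatty acid synthesis, Fads1 with hAMSC was the 1 call among 7 tested genes. Acly, which makes cytosolic acetyl-CoA from citrate, gave log2 fold changes of 0.03 with hAEC and 0.00488 with hAMSC (SE 0.03 each). Acaca, the carboxylase that makes malonyl-CoA, gave -0.02 and 0.05 (SE 0.04 each), and Elovl5, an elongase of polyunsaturated fatty acids, 0.04 and 0.02 (SE 0.04 each). Scd, which makes monounsaturated fatty acids, had 56 to 99 counts per library, the fewest of the tested genes, and gave 0.15 and 0.12 with an SE of 0.18. Elovl6, an elongase of saturated fatty acids, had 0 to 11 counts, with 0 in hAEC 11 and hAMSC 7, where 3 counts would be 0.0978 and 0.086 CPM, and was not tested.

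Fasn, the synthase that builds palmitate, gave -0.03 with hAEC (SE 0.05, adjusted p = 0.974) and 0.13 with hAMSC (SE 0.05, adjusted p = 0.443). In the lower-numbered set Fasn was counted at 84.2 and 86.6 CPM with vehicle, 82.1 and 80.9 with hAEC, and 81.6 and 87.9 with hAMSC. In the higher-numbered set the CPM were 74.6 and 75.5 with vehicle, 75.5 and 76.7 with hAEC, and 94.0 and 86.9 with hAMSC. In the higher-numbered set both hAMSC libraries lay above all others, and in the lower-numbered set hAMSC spanned the vehicle values and hAEC lay below them (hAMSC log2 0.27 in the higher-numbered and -0.00423 in the lower-numbered set alone). Between the co-cultures its log2 fold change was -0.15, hAEC minus hAMSC (SE 0.05, adjusted p = 0.531).

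Counted by whether libraries overlapped, 8 of the 31 genes had both hAEC libraries above both vehicle libraries in each set, where 4.39% of all genes did. These were Hmgcs1, Idi1, Sqle, Cyp51, Msmo1, Sc5d, Stard4 and Fads1. For hAMSC the count was also 8, against 3.94% of all genes: Sqle, Cyp51, Msmo1, Hsd17b7, Sc5d, Insig1, Stard4 and Fads1. None of the 31 lay below vehicle in both sets, against 3.6% of all genes with hAEC and 4.49% with hAMSC. The 31 genes had been listed with earlier results of these libraries known, so these counts are descriptions.

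The test of hAEC against hAMSC itself called none of the 31, where 3 of 13539 genes or 0.0222% passed. 12 of 31 were above 0 (median log2 -0.03), against 50.0% of all genes, and Fasn was the 1 gene under an unadjusted p of 0.05 (6.37% of all genes). Neither DESeq2 nor limma voom called any of the 31, where they called 79 and 4 of all genes. Taking both co-cultures against vehicle, 27 of 31 were above 0 (48.1% of all genes) with a median of 0.06. None passed in edgeR's quasi-likelihood test, where 0.0443% of all genes did, while 10 of the 31 were under an unadjusted p of 0.05 (8.09% of all genes). DESeq2 called 3 of the 31 (Cyp51, Fads1 and Sqle) and 38 of all 13539 genes. The smallest adjusted p in edgeR was 0.076, shared by the same 3 genes. For hAEC against vehicle 10 of the 31 were under an unadjusted p of 0.05, all higher, against 5.61% of all genes in either direction and 3.26% higher. For hAMSC against vehicle 10 were, all higher, against 9.68% and 5.27%.

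Summed markers of other cells varied too. Within the hepatocyte list, transferrin (Tf) made up most of the sum, at 509 to 815 CPM. The other 7 genes summed to 10.0 to 10.8 CPM with vehicle in the lower-numbered set, against 1.55 to 7.54 with hAMSC and 5.23 to 7.41 with hAEC. In the higher-numbered set they summed to 3.53 to 4.71 with vehicle, 1.83 to 3.2 with hAMSC and 1.27 to 7.73 with hAEC. The 8 endothelial genes summed to 275 to 336 CPM with hAMSC in the higher-numbered set, against 214 to 215 with vehicle and 202 to 213 with hAEC. In the lower-numbered set they summed to 447 to 557 with hAMSC, spanning vehicle at 513 to 531, and to 457 to 475 with hAEC. No listed marker was at 0 in every library, and the part of these cells in the results for Sqle and Fads1 was not tested.

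The larger contrast in these genes was between the library sets. It was first seen in the values and is described without a test. For 23 of the 31 genes all 6 higher-numbered libraries lay above all 6 lower-numbered ones, where 26.9% of all genes did. None of the 31 lay below, where 28.0% of all genes did, and the other 8 (Mvd, Nsdhl, Hsd17b7, Scap, Insig1, Acaca, Fasn and Scd) overlapped. The median difference, higher- minus lower-numbered set, was 0.49 on the log2 scale or 1.41-fold, against -0.0042 over all genes. By role, 6 of 7 mevalonate genes (median 0.55), 9 of 11 from squalene to cholesterol (0.55), 4 of 6 regulators and transport genes (0.47) and 4 of 7 fatty acid genes (0.17) lay apart.

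**Figure D3:**
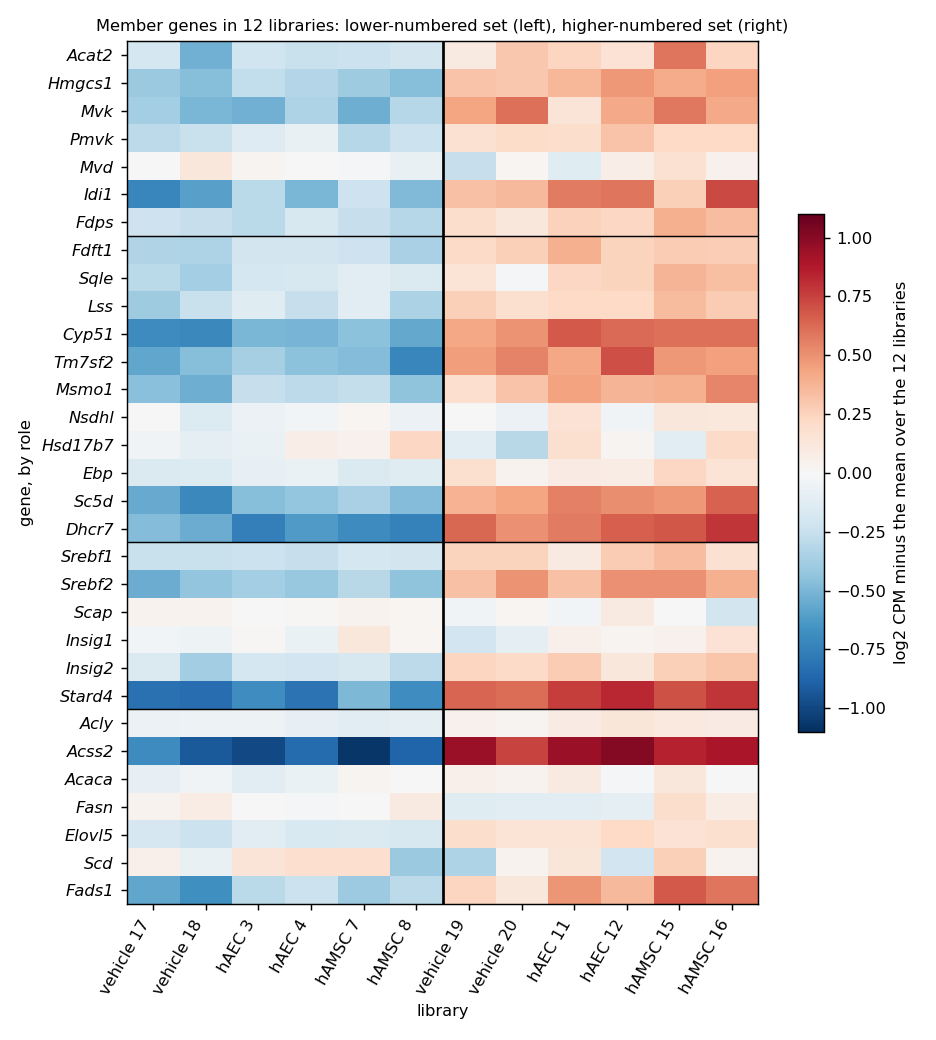
Log2 CPM minus the gene's mean over the 12 libraries (colour scale) for the 31 tested genes (rows, by role) in each library (columns); the vertical line parts the lower-numbered set (left) from the higher-numbered set (right). For 23 rows every column right of the line is higher than every column left of it, with Acss2, Stard4 and Dhcr7 the deepest, while rows such as Scap, Insig1 and Fasn stay pale.

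Acss2, which makes acetyl-CoA from acetate, differed most, at 3.48-fold (log2 1.80). Acss2 had 4.77 and 4.07 CPM with vehicle, 3.88 and 4.29 with hAEC, and 3.67 and 4.18 with hAMSC in the lower-numbered set, against 14.9 and 12.9, 14.9 and 15.5, and 13.9 and 14.4 in the higher-numbered set. Stard4 came next, at 2.72-fold (log2 1.44). For Stard4 the lower-numbered libraries held 26.7 and 26.4 CPM (vehicle), 29.4 and 26.9 (hAEC), and 33.6 and 29.5 (hAMSC). The higher-numbered ones held 73.6 and 72.4, 80.0 and 83.8, and 77.0 and 81.7, in the same order of groups. Dhcr7 followed at 2.43-fold (log2 1.28). Dhcr7 had 14.2 and 13.5 CPM with vehicle, 11.7 and 12.8 with hAEC, and 12.2 and 11.8 with hAMSC in the lower-numbered set, against 30.5 and 28.0, 29.3 and 31.2, and 31.7 and 34.1 in the higher-numbered set. For these 3 genes, in that order, the lowest higher-numbered library held 12.9, 72.4 and 28.0 CPM, and the highest lower-numbered one 4.77, 33.6 and 14.2.

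At the other end stood Fasn (log2 -0.06), Scap (-0.05) and Hsd17b7 (-0.04), whose sets overlapped. For Hsd17b7 the lower-numbered libraries held 7.36 and 6.99 CPM (vehicle), 7.18 and 7.92 (hAEC), and 7.79 and 8.83 (hAMSC). The higher-numbered ones held 6.95 and 6.1, 8.54 and 7.7, and 6.98 and 8.76, in the same order of groups. Insig1 differed by -0.00345 between the sets while Srebf2 differed by 0.84, or 1.79-fold, and Srebf1 by 0.46, or 1.37-fold. The marker lists also differed between the sets, and not uniformly within a list. The macrophage sum ran from 7552 to 8076 CPM in the set with lower numbers, against 18593 to 20348 in the other, and without Lyz2, its most abundant gene, 6453 to 7025 and 10194 to 10493. Of the 11 macrophage genes 6 lay wholly above in the higher-numbered set, Marco and Cd14 lay wholly below, and 3 overlapped, Cd68 among them. The stellate sum was 63.1 to 102 CPM and 26.2 to 31.7, but Reln alone gave 54.8 to 92.2 and 6.71 to 15.4 of it. Without Reln it was 8.29 to 12.9 CPM in the lower-numbered set and 15.1 to 21.4 in the higher-numbered set, where Tagln and Lox lay wholly above. The endothelial sum was 447 to 557 CPM and 202 to 336, with Cdh5, Tek and Lyve1 wholly below in the higher-numbered set and the other 5 genes overlapping. The part of these markers in the set difference of the SREBP genes was not tested.

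Whether the co-cultures acted alike in both sets was tested with an interaction term. For hAEC none of the 31 genes passed (0.0% of all genes in edgeR), and none was under an unadjusted p of 0.05, where 5.4% of all genes were; DESeq2 called 24 of all genes. For hAMSC none of the 31 passed, where 0.199% of all genes did, and 4 were under an unadjusted p of 0.05 (10.0% of all genes). These were Fasn (0.28, adjusted p = 0.236), Fdps (0.25, adjusted p = 0.285), Dhcr7 (0.37, adjusted p = 0.305) and Mvd (0.34, adjusted p = 0.437), each as the log2 effect in the higher-numbered set minus that in the lower-numbered set. With 2 libraries per group in a set, a p that misses the threshold does not show that the effects were equal.

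**Figure D4:**
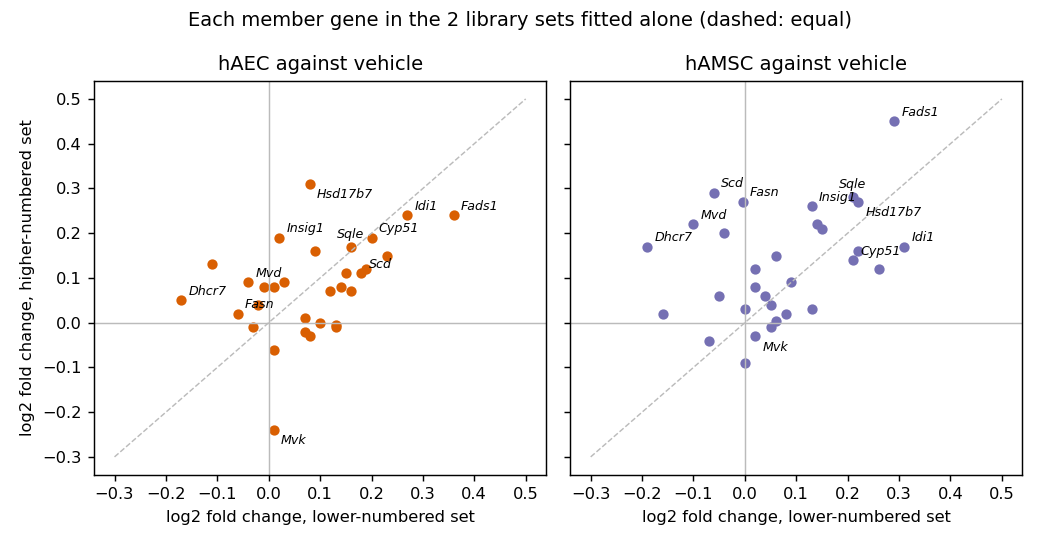
Log2 fold change against vehicle in the lower-numbered set alone (horizontal axes) and in the higher-numbered set alone (vertical axes) for the 31 tested genes, with hAEC (left) and hAMSC (right); each point is 1 gene and the dashed line marks equal values. Fads1 lies high on both axes with hAMSC (0.29 and 0.45). With hAMSC, Dhcr7 lies at -0.19 and 0.17, and Fasn at -0.00423, next to no change, and 0.27. Neither Dhcr7 nor Fasn passed the test of the interaction.

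A wider list of 32 genes of the same pathways, of which 31 were in the files and 29 were tested, held no call in any comparison in edgeR's quasi-likelihood test. With hAEC 16 of the 29 were above 0, and with hAMSC 22 of 29. Acsl3, which activates fatty acids with coenzyme A, gave a log2 fold change of 0.24 with hAEC (SE 0.08, adjusted p = 0.861). Mid1ip1, which helps acetyl-CoA carboxylase to polymerise, was at -0.11 for hAEC against hAMSC (SE 0.04, adjusted p = 0.636), and Elovl1, an elongase of very long fatty acids, at -0.08 (SE 0.03, adjusted p = 0.693). Between the library sets the wider list was split: 13 of 29 lay above in the higher-numbered set without overlap, 8 lay below and 8 overlapped, or 44.8% above and 27.6% below, against 26.9% and 28.0% of all genes. The median log2 difference of the list was 0.06. Among 7 genes of sterol sensing and efflux, none passed in any comparison in edgeR's quasi-likelihood test.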

How the data were processed

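Polyadenylated RNA of 12 libraries was sequenced after RNAqueous-Micro extraction and TruSeq Stranded mRNA preparation, per the labels' protocols. The authors deposited expected counts per gene, estimated by RSEM per the submitters' processing notes, which also name FastQC, Trim Galore, STAR, limma and the build rn6 (Rnor_6.0) without versions or roles. Of the deposited expected counts above 0, 80.5% were whole. RSEM shares a read that matches several genes, and 10 of the 33 genes, Sqle, Fads1 and Cyp51 not among them, had values that were not whole.

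Counts were rounded and tested with edgeR 4.0.16 (R 4.3.3): filterByExpr kept 13539 genes, TMM factors ran from 0.973 to 1.03, and the robust two-sided quasi-likelihood test was fitted over all 12 libraries with group and library set, and with their interaction for differences between sets. Adjusted p-values are Benjamini-Hochberg over all genes tested, threshold 0.05. CPM were computed here with edgeR on the TMM-scaled library sizes. SE is the log2 fold change divided by the root of F. The biological coefficient of variation was 9.91% with the set and 38.9% without it. DESeq2 1.42.0 and limma voom 3.58.1 were alternatives. The tests were tested on simulated data. No gene lengths were used, so comparisons between genes, such as the marker sums and the most abundant marker of a list, are not corrected for length.

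The gene members, lists and library sets were chosen with earlier results of these data known. The rule names the 5 regulators, every member that passed, the 3 members highest and the 3 lowest by set difference, and up to 6 genes of the wider list, some of which are not reported here. No 2 libraries agreed within sampling noise (lowest chi-square per degree of freedom 6.23). No label ties a library to its own rat or culture. The p-values therefore reflect library-to-library spread, which could be technical.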

Additional observations from a re-analysis of the deposited data

Results flagged for a closer look

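Among 93 groups of 4 libraries examined over the tested genes, 2 had a library far from its group. Each group holds 2 libraries of each set. Where a gene's sets lie apart, the gap between them widens the range, so the check is less able to flag a library. The usual chance rate of about 1 group in 20 therefore does not apply. Both flagged genes, Nsdhl and Scd, were among those whose sets overlapped. Nsdhl stood at 40.5 CPM in hAEC 11, with the other hAEC libraries at 34.7 to 35.6 CPM, a gap of 0.843 of the group's range, past Dixon's critical value. Scd stood at 2.16 CPM in hAEC 12, with the others at 2.74 to 2.84 CPM, a gap of 0.853 of the range. Neither gene passed in any comparison in edgeR's quasi-likelihood test.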

How the results depend on the processing

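No paired analysis was possible because the groups share no sample numbers in the labels. Limits are the 2 libraries per group in each set, and the counts of Fads2 and Elovl6, which were too low to test. None of the 31 changed sign in the 4 comparisons of groups when libraries were scaled by relative log expression or by library size alone; for differences between sets, Cyp51 and Idi1 (hAEC) and Fdft1 (hAMSC) did with library size alone. Outside the fits that left out a library, 118 summary values were kept and 35 moved. Of single genes, 283 values kept their side of the threshold, 9 came to pass and 7 no longer did. The cause of each change was not tested, except that the sets alone and the 2 groups alone use fewer libraries.

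The number of genes tested varied with the fit. Of the 33 SREBP genes, 32 were tested in each set alone and 33 with no filter on low counts. All genes tested numbered 13471 in the lower-numbered set alone, 13430 in the higher-numbered set alone and 20553 with no filter. With hAEC 1 SREBP gene passed by DESeq2. With hAMSC 4 passed by DESeq2, 1 in the higher-numbered set alone, and 0 in the lower-numbered set alone, with group alone, and with the 2 groups alone. For either co-culture 3 passed by DESeq2 and 3 with no filter on low counts. Sqle and Fads1 with hAMSC had adjusted p of 1.0 each with group alone, 0.128 and 0.2 in the lower-numbered set alone, and 0.13 and 0.0764 with the 2 groups alone. Sqle had 0.121 in the higher-numbered set alone. Fasn with hAMSC turned to -0.00423 in the lower-numbered set alone.

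Genes of all tested that passed: with hAEC, 2 by DESeq2, 1 in the lower- and 6 in the higher-numbered set alone, and 10 with the 2 groups alone. With hAMSC, 0 with group alone, 52 with no filter, 144 by DESeq2, 86 and 94 in the sets alone, and 9 with the 2 groups alone. For hAEC against hAMSC, 0 with group alone, 26 with no filter, 79 by DESeq2, and 1 and 58 in the sets alone. For either co-culture, 0 with group alone, 2 with library size alone, 18 with no filter, 38 by DESeq2, 2 by voom, and 38 and 27 in the sets alone. For the hAEC effect between sets, 309 with no filter and 24 by DESeq2. For the hAMSC effect between sets, 533 with no filter, 102 by DESeq2 and 4 by voom.

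Leaving out 1 library at a time, genes of the 31 that passed ranged from 0 to 3 with hAMSC and 0 to 4 for either co-culture, and were 0 throughout with hAEC. Over all genes the ranges were 8 to 153 with hAMSC, 0 to 50 for hAEC against hAMSC, 0 to 95 for either co-culture, and 0 to 5 and 0 to 158 for the hAEC and hAMSC effects between sets, where the lone library of an arm is assumed to vary like the others. The median of the 31 stayed between 0.051 and 0.096 with hAEC and between 0.05 and 0.101 with hAMSC.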
